A study of Mus musculus with 8 samples.

Results

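The vascular endothelial growth factor (VEGF) system was followed through 9 genes, chosen by symbol: the ligands Vegfa, Vegfb, Vegfc and Pgf, the receptors Flt1, Kdr and Flt4, and the co-receptors Nrp1 and Nrp2. All 9 were found among the 22520 genes of the deposited RNA-Seq table. Expression was measured in 4 LRP1 KO and 4 Wildtype (WT) libraries of C57BL/6 mice at postnatal day 14. By the study's methods, knockout mice were LRP1 f/f; Cdh5-CreER+/-, and their WT littermates were LRP1 f/f; Cdh5-CreER-/-, so that both groups carried the floxed Lrp1 alleles. The recombinase is driven by the promoter of Cdh5, the gene of the endothelial cadherin, and acts only after tamoxifen. WT littermates thus lack the recombinase itself. Cells were taken from heart, liver and lung and, in the methods, selected with PECAM-1 beads. The labels call every library a mixture of cells from the 3 organs, whereas the study presents liver cells apart from heart and lung cells, and no value here can be assigned to an organ. Since the labels do not say that the libraries came from separate animals, p-values measure the spread between libraries, which may be technical.

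Secreted VEGF ligands act on endothelial cells through receptor tyrosine kinases. VEGF-A binds VEGFR2, encoded by Kdr, which carries most of the signal for growth, migration and permeability, and it binds VEGFR1, encoded by Flt1, more tightly but with weaker signaling. VEGF-B and placental growth factor, the product of Pgf, bind VEGFR1. VEGF-C and VEGF-D act on VEGFR3, encoded by Flt4, which drives lymphatic growth and is also found on sprouting blood vessels. Neuropilins hold ligands beside these receptors and also bind class 3 semaphorins. LRP1, an endocytic receptor related to the LDL receptor, takes up many extracellular ligands.

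Values are in FPKM, which counts sequenced fragments per unit of transcript length and of library size. They were quantile normalized, which gave all libraries nearly the same distribution, so the depth of the libraries is unknown and only the spread between libraries gives an error. Values are listed in the order of libraries 1 to 4 of each group throughout. The WT libraries held 113, 140, 103 and 124 FPKM of Lrp1, the deleted gene, and the LRP1 KO libraries 3.45, 5.20, 2.79 and 7.72. The knockout mean was 3.99% of the WT mean, with a log2 fold change of -4.45 and an adjusted p of 8.9e-05. LRP1 KO library 4 stood apart from the other knockout libraries. On the first principal component, which held 60.8% of the variance, it lay at 0.102, against 17.2 to 27.3 for LRP1 KO libraries 1 to 3 and -24.1 to -12.9 for WT. The summed level of 20 endothelial markers was 181.8 to 198.9 FPKM in WT, up to 730.5 in LRP1 KO and 188.3 in LRP1 KO library 4. Where leaving it out changed a call, the value without it is given too.

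The endothelial label was checked against markers of the cell types that the preparation could hold. Endothelial markers were present at modest levels, with WT means of 7.89 FPKM for Pecam1 and 9.59 for Cdh5, while the fibroblast collagen gene Col1a1 had a WT mean of 498.5 FPKM. The 13 fibroblast markers summed to 2971 to 4217 FPKM in WT and 2678 to 3915 in LRP1 KO, and their median log2 fold change was -0.28. Dpt, Pdgfra and Thy1 fell, with log2 fold changes of -2.01, -0.96 and -0.52, and Postn rose by 0.98, and 6 fell and 1 rose when LRP1 KO library 4 was left out. All 17 tested endothelial markers had a positive estimate, with a median log2 fold change of 0.94, and 2 of them passed the test, the TGF-beta co-receptor gene Eng and Ecscr. When LRP1 KO library 4 was left out, 16 of the 17 passed, Cdh5 and Pecam1 among them. Macrophage markers rose in 9 of 11 tested genes, and their sum went from 57.1 to 100 FPKM in WT to 236.8 to 573.9 in LRP1 KO, with 517.2 in LRP1 KO library 4. Leukocyte markers rose in 8 of 10 and mural cell markers in 4 of 8. With LRP1 KO library 4 left out, 8 macrophage, 8 leukocyte and 6 mural cell markers rose. Over all tested genes, 6.27% passed the adjusted p higher and 7.31% lower, or 12.6% and 13.9% without LRP1 KO library 4. No list gene of any cell type was at 0 in all 8 libraries, but many held only traces. The level for testing was reached by 1 of 9 hepatocyte, 3 of 10 cardiomyocyte and 2 of 10 lung epithelial markers. The albumin gene Alb was at most 0.108 FPKM. In bulk samples, more cells of a type and more RNA per cell cannot be told apart, and the part of these shifts in the values below was not tested.

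**Figure D1:**
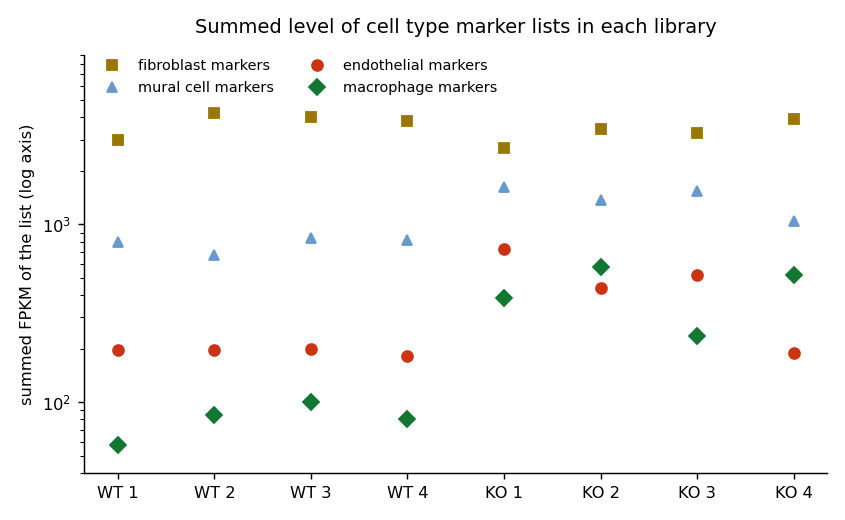
Summed FPKM of cell type marker lists in each library, on a log axis, with a point for each of the 4 WT and 4 LRP1 KO libraries. The endothelial sum of LRP1 KO library 4, at 188.3, lies within the WT range of 181.8 to 198.9, whereas its macrophage sum of 517.2 lies far above the WT range of 57.1 to 100.

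None of the 9 genes passed the adjusted test in either direction. Differences were tested on the log2(FPKM + 1) scale, with 2 limits: an adjusted p below 0.05, and a log2 fold change of 1 or more in size. Of 11389 tested genes, 1.62% passed both limits, 1.12% higher and 0.5% lower, and 13.6% passed the adjusted p alone, 6.27% higher and 7.31% lower. All 9 genes had entered the test, and 4 of them, Kdr, Flt4, Vegfa and Pgf, had an unadjusted p under 0.05, against 33.7% of tested genes. Estimates were positive for 6 of the 9, with a median of 0.23 against -0.01 over all tested genes. When each library was centred on its endothelial markers, 6 of these signs turned, while the median of all genes moved to -0.84 and the genes passing split into 39 higher and 2872 lower, in place of 714 and 833. The groups did not overlap in Kdr and Vegfa, 2 of 9 genes and both higher in LRP1 KO, against 19.6% of tested genes, 8.84% of them higher and 10.7% lower. In the fit that left out LRP1 KO library 4, Kdr, Flt4 and Pgf passed the adjusted p, and 26.5% of all tested genes did so, 12.6% higher and 13.9% lower.

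**Figure D2:**
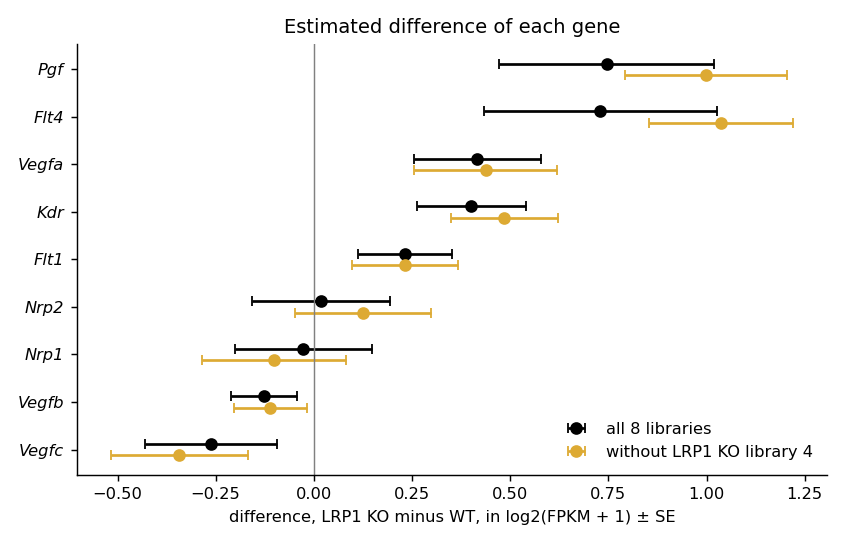
Difference of LRP1 KO minus WT in log2(FPKM + 1) on the horizontal axis for each of the 9 genes, with bars of ± 1 SE, from all 8 libraries (black) and without LRP1 KO library 4 (yellow). Pgf and Flt4 have the highest estimates, 0.75 and 0.73 with all libraries, and both estimates are higher, at 0.998 and 1.04, when LRP1 KO library 4 is left out.

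The 3 promoters printed here are those of Vegfa and Kdr, the genes whose groups did not overlap, and of Flt1, the other VEGF-A receptor. Each is the 250 bases before the gene's most upstream start in RefSeq (GRCm38.p6), read 5′ to 3′ on the gene's strand, with matches to GGAAG or its reverse complement CTTCC, the core bound by ETS transcription factors, in capitals.
Vegfa, chr17:46032378-46032627, minus strand: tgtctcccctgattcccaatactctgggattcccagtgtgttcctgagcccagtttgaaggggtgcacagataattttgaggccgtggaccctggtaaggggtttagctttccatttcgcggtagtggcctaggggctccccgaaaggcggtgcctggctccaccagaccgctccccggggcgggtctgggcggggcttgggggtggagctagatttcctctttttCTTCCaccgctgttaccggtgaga
Kdr, chr5:75978456-75978705, minus strand: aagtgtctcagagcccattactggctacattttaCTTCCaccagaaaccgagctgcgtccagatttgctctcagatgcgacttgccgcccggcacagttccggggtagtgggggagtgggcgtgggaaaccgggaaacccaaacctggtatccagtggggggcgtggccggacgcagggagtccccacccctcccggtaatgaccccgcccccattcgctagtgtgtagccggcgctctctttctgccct
Flt1, chr5:147726012-147726261, minus strand: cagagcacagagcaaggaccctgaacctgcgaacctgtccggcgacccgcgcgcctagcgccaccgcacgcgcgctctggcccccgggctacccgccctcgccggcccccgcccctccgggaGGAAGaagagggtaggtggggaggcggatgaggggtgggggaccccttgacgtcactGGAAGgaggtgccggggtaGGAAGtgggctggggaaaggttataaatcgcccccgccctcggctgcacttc
The Vegfa window held 1 match, the Kdr window 1 and the Flt1 window 3. Windows of the other genes, not printed, held 3 matches for Nrp1, 1 for Flt4 and 0 for Nrp2, Vegfb, Vegfc and Pgf. RefSeq and GENCODE starts differ. By the GENCODE positions, the Nrp1, Flt4 and Pgf windows lie within the gene and the Nrp2 window spans its start. At least 1 match was present in 64.1% of 32851 windows of the same length. The core ACGTG of hypoxia-inducible factor sites, searched on both strands, was in none of these 9 windows and in 16.6% of all windows. Vegfa and Pgf have another RefSeq start each, and the window of the other Vegfa start (chr17:46025164-46025413) held 1 match to each motif, while that of Pgf held 0. A match is a description of these letters alone.

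Vegfa lies on chromosome 17 (46016993 to 46032369, minus strand, GRCm38) and encodes the main angiogenic ligand. The WT libraries gave 19.4, 31.0, 32.8 and 30.2 FPKM, and the LRP1 KO libraries 34.0, 46.3, 34.8 and 35.8. WT library 1 was the lowest and LRP1 KO library 2 the highest, and the groups did not overlap, although the highest WT and the lowest LRP1 KO library were close. The mean was 28.4 ± 6.06 FPKM (SD, n = 4) in WT and 37.8 ± 5.75 in LRP1 KO. The log2 fold change was 0.42 (95% interval 0.05 to 0.78), with an adjusted p of 0.108, and it was 0.25 without WT library 1. With a macrophage marker covariate it was -0.29, with an SE of 0.35 and an adjusted p of 0.655. That covariate, a mean log2 marker level, was 1.14 to 1.55 in WT and 2.12 to 2.96 in LRP1 KO. Fits with it can therefore hardly tell it from the group, for any gene. The exact two-sided permutation p was 0.0286, the smallest that 4 against 4 libraries allow.

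Placental growth factor, encoded by Pgf on chromosome 12 (85166635 to 85177790, minus strand), is a ligand of VEGFR1. Pgf values were 9.23, 6.98, 6.84 and 5.50 FPKM in WT, and 21.3, 11.4, 13.9 and 6.95 in LRP1 KO. LRP1 KO libraries 1 to 3 lay above every WT library and library 4 lay within the WT range. Means were 7.14 ± 1.54 and 13.4 ± 5.99 FPKM (SD, n = 4 each), a log2 fold change of 0.75 (0.13 to 1.36) with an adjusted p of 0.0946 and an exact permutation p of 0.0857. Omitting LRP1 KO library 4 gave a log2 fold change of 0.998 with an adjusted p of 0.00958. An endothelial marker covariate gave -0.0078, and a macrophage one 1.85 (SE 0.614). A fit with the replicate number as a block gave an adjusted p of 0.0339, but the numbers were not taken to pair libraries.

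Vegfc, on chromosome 8 (54077606 to 54187096, plus strand), encodes the lymphangiogenic ligand of VEGFR3 and had the highest mean of the 9 genes in both groups. The 4 WT libraries held 36.4, 59.1, 50.1 and 40.7 FPKM, against 29.0, 41.7, 38.2 and 45.2 in the LRP1 KO libraries. The groups overlapped widely. Means were 46.6 ± 10.1 and 38.5 ± 6.96 FPKM (SD, n = 4 each), and the log2 fold change of -0.26 had an interval of -0.64 to 0.12 and an adjusted p of 0.301. It was -0.14 without LRP1 KO library 1 and also without WT library 2. An endothelial marker covariate turned it to 0.0096, and centring on endothelial markers gave Vegfc -1.09 with an adjusted p of 0.0394, when the median of all genes was -0.84.

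Vegfb, on chromosome 19 (6982473 to 6987651, minus strand), encodes a VEGFR1 ligand tied to fatty acid uptake in endothelium. Its 4 WT values were 27.9, 34.5, 30.8 and 26.2 FPKM, and its 4 LRP1 KO values 26.9, 29.2, 26.4 and 26.1. The LRP1 KO libraries lay close together, within 26.1 to 29.2, and the WT range reached over most of them. The log2 fold change was -0.13 (-0.32 to 0.06) with an adjusted p of 0.313, an interval that holds no 2-fold change in either direction, and -0.06 without WT library 2. A related ligand outside the 9 genes, Vegfd, which the table lists as Figf, had means of 105.8 ± 20.3 and 88.2 ± 13.8 FPKM (SD, n = 4 each) and an adjusted p of 0.283.

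**Figure D3:**
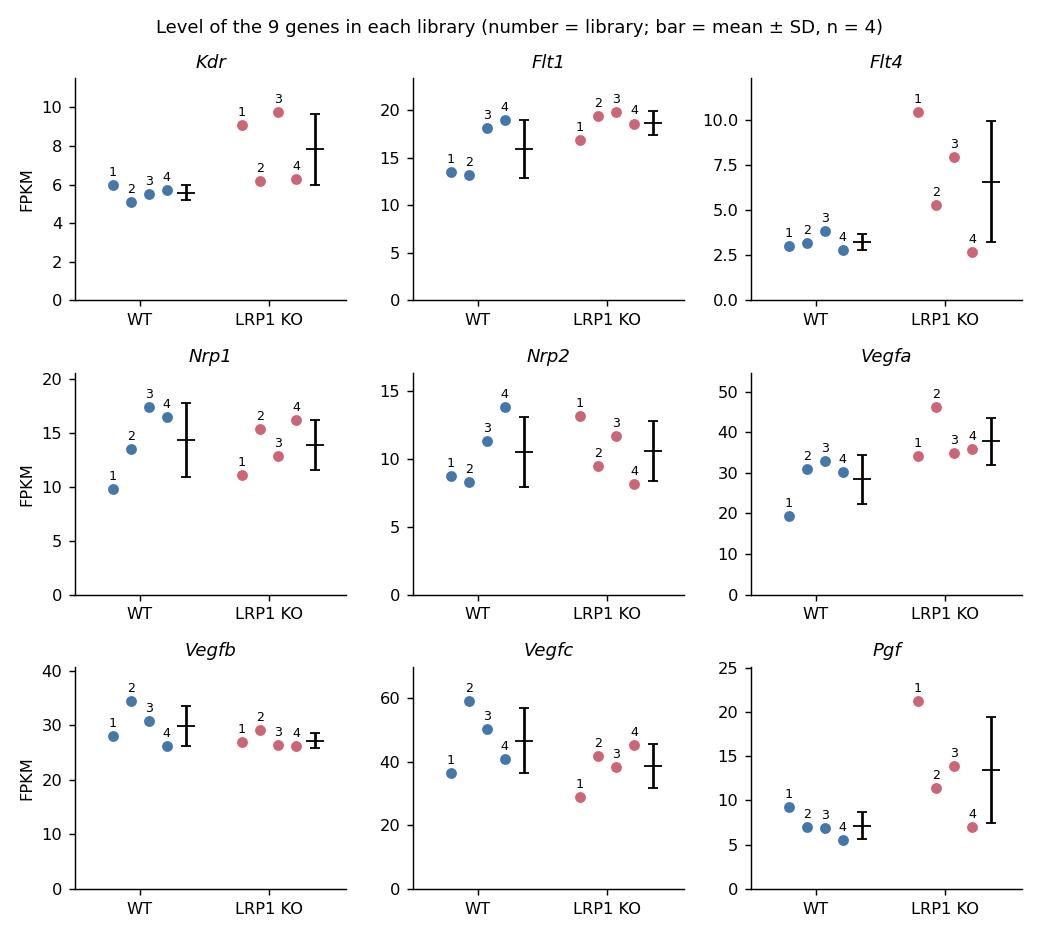
FPKM of each VEGF gene in the 4 WT and 4 LRP1 KO libraries, with a numbered point for each library and a bar for the mean ± SD of each group (n = 4), on axes that start at 0. Kdr and Vegfa show no overlap between groups, and in Flt4 and Pgf LRP1 KO library 4, at 2.68 and 6.95, sits apart from the other LRP1 KO libraries.

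Among the receptors, Kdr (chromosome 5, 75932827 to 75978458, minus strand) measured 5.98, 5.08, 5.51 and 5.72 FPKM in WT and 9.07, 6.16, 9.74 and 6.28 in LRP1 KO. WT libraries were tight, at 5.57 ± 0.382 FPKM (SD, n = 4), and the LRP1 KO libraries, at 7.81 ± 1.86, fell into higher values for libraries 1 and 3 and values just above WT for libraries 2 and 4. The log2 fold change was 0.40 (0.09 to 0.71) with an adjusted p of 0.0806, and the exact permutation p was 0.0286. Leaving out LRP1 KO library 4 gave 0.48 with an adjusted p of 0.0309. The log2 fold change of Kdr was 0.13 with an endothelial marker covariate (adjusted p of 0.802) and 1.25 with a macrophage one (adjusted p of 0.0836).

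Flt1 lies on the same chromosome (147561604 to 147726011, minus strand) and encodes VEGFR1, which also has a soluble decoy form that a gene-level value does not separate. Flt1 values were 13.5, 13.2, 18.1 and 19.0 FPKM in WT and 16.9, 19.4, 19.8 and 18.6 in LRP1 KO. WT libraries split into a lower and a higher pair, and the higher pair overlapped the LRP1 KO range. Means were 15.95 ± 3.03 and 18.69 ± 1.29 FPKM (SD, n = 4 each), with a log2 fold change of 0.23 (-0.04 to 0.50) and an adjusted p of 0.205. Leaving out WT library 2 gave 0.15.

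Flt4 (chromosome 11, 49609263 to 49652739, plus strand) encodes VEGFR3 and had the lowest mean of the 9 genes in both groups. The WT libraries were close together, with 3.01, 3.19, 3.85 and 2.81 FPKM, and the LRP1 KO libraries spread over 10.4, 5.29, 7.91 and 2.68. LRP1 KO libraries 1 to 3 were above every WT library, whereas library 4 was below all of them. The log2 fold change was 0.73 (0.06 to 1.40), with an adjusted p of 0.120 and an exact permutation p of 0.143. In the fit without LRP1 KO library 4 it was 1.04 with an adjusted p of 0.00512, and Flt4 was then the only one of the 9 genes past both limits. With an endothelial marker covariate the estimate turned to -0.11, and with a macrophage one it was 1.88 (SE 0.671).

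The neuropilins did not separate the groups. Nrp1, on chromosome 8 (128358604 to 128503363, plus strand), encodes the co-receptor that pairs with VEGFR2 and had values of 9.84, 13.5, 17.4 and 16.5 FPKM in WT and 11.1, 15.3, 12.9 and 16.2 in LRP1 KO. The log2 fold change of Nrp1 was -0.03, with an interval of -0.42 to 0.36 and an adjusted p of 0.931. Nrp2, on chromosome 1 (62703285 to 62818695, plus strand), encodes the co-receptor that pairs with VEGFR3, and its values were 8.71, 8.27, 11.3 and 13.9 FPKM in WT and 13.1, 9.49, 11.7 and 8.18 in LRP1 KO. Its log2 fold change was 0.02 (-0.38 to 0.41) with an adjusted p of 0.955. Both intervals exclude a 2-fold change, and leaving out single libraries turned the sign of both, as did an endothelial marker covariate, to 0.25 for Nrp1 and -0.25 for Nrp2.

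Because FPKM values are corrected for length, levels can be set beside each other between genes. In WT, Vegfc was highest, followed by Vegfb, Vegfa, Flt1, Nrp1, Nrp2, Pgf, Kdr and Flt4. Of these neighbours only Vegfc and Vegfb, Vegfa and Flt1, and Kdr and Flt4 had ranges that did not overlap. Vegfb exceeded Vegfa in 2 of 4 WT libraries. In LRP1 KO, Vegfc and Vegfa were not separable, with Vegfc higher in 2 of 4 libraries, and Vegfa, Vegfb, Flt1 and Nrp1 then followed with no overlap between neighbours. Pgf stood between Nrp1 and Nrp2, and all lower neighbours overlapped. For scale, the median of genes with at least 1 FPKM was 11.7 to 11.8 in every library, so that in WT the 3 ligands Vegfa, Vegfb and Vegfc and the receptor gene Flt1 lay above it in all 4 libraries, and the ligand gene Pgf and the receptor genes Kdr and Flt4 below it.

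Ratios between genes of a library are free of any factor common to that library, and are given as a description with no test. Vegfa relative to Vegfc was 0.533, 0.524, 0.654 and 0.742 in WT and 1.17, 1.11, 0.911 and 0.793 in LRP1 KO, and the groups did not overlap. Vegfa alone did not overlap either, and the share of other gene pairs without overlap was not counted. The ratios of Flt4 to Kdr, Pgf to Vegfa, Pgf to Flt1 and Vegfd to Vegfc all overlapped between groups. The ratio of Flt1 to Kdr was 2.87 ± 0.524 in WT and 2.5 ± 0.65 in LRP1 KO (SD, n = 4 each), and that of Nrp1 to Nrp2 ranged over 1.13 to 1.63 and 0.844 to 1.98, both with overlapping groups. Relative to Cdh5, the endothelial cadherin whose own values were 47.3, 21.5, 33.9 and 8.56 FPKM in LRP1 KO, Flt4 was 0.335, 0.343, 0.343 and 0.317 in WT and 0.220, 0.246, 0.233 and 0.313 in LRP1 KO. Flt4 was the 1 gene of the 9 whose ratio to Cdh5 did not overlap, lower in LRP1 KO, which held for 3.21% of tested genes. Kdr relative to Cdh5 was 0.491 to 0.666 in WT and 0.192, 0.287, 0.287 and 0.734 in LRP1 KO, where library 4 lay above the WT range and the others below it.

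**Figure D4:**
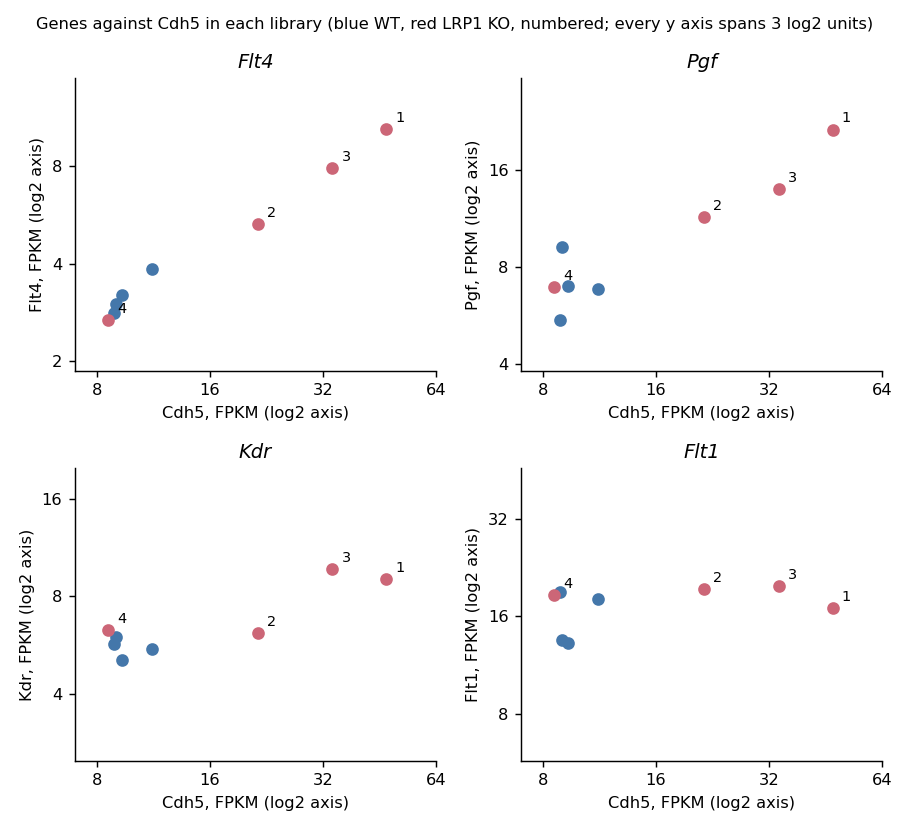
FPKM of Flt4, Pgf, Kdr and Flt1 (vertical) against FPKM of Cdh5 (horizontal) in each of the 8 libraries, on log2 axes, with WT in blue and LRP1 KO in red and numbered. LRP1 KO library 4, with Cdh5 at 8.56 FPKM, lies beside the WT libraries in Flt4 and Pgf, and LRP1 KO library 1, with Cdh5 at 47.3, is the farthest from them in both genes.

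The LRP1 KO libraries followed the order of the endothelial markers, library 1 highest, then 3, 2 and 4, in Flt4, Nrp2 and Pgf. That is 3 of 9 genes, against 8.46% of all tested genes. The 15 of 17 tested endothelial markers that did so are no independent reference, since the order was taken from their mean. The pattern of libraries 1 to 3 above every WT library and library 4 not was seen in Flt4 and Pgf, 2 of 9, against 8.98% of tested genes. Vegfa and Kdr, in contrast, were above WT in library 4 too.

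The genes closest in pattern were taken as the 3 with the smallest root mean square difference in centred log2(FPKM + 1) over the 8 libraries, a description with no test. For Flt4 these were Arap3 at 0.0792, Prkch at 0.0857 and Klhl4 at 0.0936. For Pgf they were the endothelial adhesion gene Icam2 at 0.120, Smagp at 0.122 and the transcription factor gene Gata2 at 0.147. Kdr lay nearest to Spire1 at 0.0808, Cdkl2 at 0.0826 and Btbd19 at 0.0938, and Flt1 to Wipi1 at 0.0682, Sec24d at 0.0695 and Igf2bp3 at 0.0744. Vegfa was nearest to Gpnmb at 0.0645, then Spry1 at 0.119 and Acvrl1 at 0.125. Vegfc was nearest to Ssc5d at 0.101, and to the mural and fibroblast receptor gene Pdgfrb and the collagen-binding integrin gene Itga11, both at 0.104. Nrp1 had Thbs2 at 0.0861, Osmr at 0.0885 and Fam46a at 0.101, Nrp2 had Ahcyl2 at 0.103, Gm9938 at 0.115 and Med13 at 0.118, and Vegfb had Optn at 0.0424, Sdhc at 0.0431 and Ptms at 0.0507. Over 11 other settings, 12 of 33 such places for Vegfc to 25 of 33 for Flt4 and Vegfa held the same gene.

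Lists of genes around the VEGF system are described by their counts, to be read against the 6.27% of all tested genes that passed higher and the 7.31% that passed lower, or 12.6% and 13.9% without LRP1 KO library 4. Of 33 signal transduction genes, 30 were tested, 4 rose and 5 fell, and the median log2 fold change was 0.05. The counts were 7 and 6 without LRP1 KO library 4. The MAP kinase gene Mapk3 fell from 119 ± 2.73 to 97.8 ± 3.37 FPKM (SD, n = 4 each, log2 fold change -0.28, adjusted p = 0.00847), and Plcg1, the phospholipase that binds VEGFR2, had a log2 fold change of -0.34 (adjusted p = 0.0118). Map2k1, the kinase upstream of Mapk3, rose by 0.27 (adjusted p = 0.0162) and the Src family kinase gene Fyn by 0.46 (adjusted p = 0.0260) on the log2 scale. Mapk3 and Plcg1 passed in 8 of 8 fits that each left out 1 library, Map2k1 in 6 and Fyn in 2.

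Among 24 tested of 27 partners and modulators of the receptors and neuropilins, 2 rose and 2 fell, close to the shares over all tested genes, with a median of 0.07. The repulsive guidance ligand gene Sema3a, whose receptor holds Nrp1, rose by 0.47 (adjusted p = 0.0195), and the netrin receptor gene Unc5b by 0.40 (adjusted p = 0.0261). The plexin gene Plxna4 had a log2 fold change of -0.72 (adjusted p = 0.0151), and Sema3f, the Nrp2 ligand, -0.42 (adjusted p = 0.0279). Of the 8 fits with 1 library left out, Plxna4 passed in 6, Sema3a in 5, Unc5b in 3 and Sema3f in 1. Without LRP1 KO library 4, 6 genes of the list rose and 2 fell.

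Of 19 VEGF-responsive and tip cell genes, 14 were tested, 3 rose and 1 fell, with a median of 0.46. Of all tested genes, 6.27% rose and 7.31% fell. The chemokine receptor gene Cxcr4 rose from a mean of 1.38 to 5.21 FPKM, by 1.34 on the log2 scale (adjusted p = 0.00583), the adhesion gene Mcam by 1.29 (adjusted p = 0.0150) and the peptide ligand gene Apln by 0.78 (adjusted p = 0.0278). Nid2, a basement membrane gene, had a log2 fold change of -0.67 (adjusted p = 0.0203). Cxcr4 is also made by leukocytes, whose markers rose in the same libraries, and Mcam by mural cells, and their part in these values was not tested. Cxcr4 passed in 8 and Mcam in 7 of the 8 fits with 1 library left out, and Nid2 and Apln in 3 each. The list held 7 genes that rose and 2 that fell without LRP1 KO library 4, against 12.6% and 13.9% of all tested genes.

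Hypoxia-induced genes, a list that includes many targets of the factors that also act on Vegfa, were all tested. Of 14 genes, 3 rose and 2 fell, against 6.27% and 7.31% of all tested genes, with a median of 0.12. The collagen prolyl hydroxylase gene P4ha1 rose by 0.49 (adjusted p = 0.00788) and the glycolytic gene Pgk1 by 0.57 (adjusted p = 0.0214). Car9, a carbonic anhydrase and a common marker of hypoxia, went the other way, from 4.90 to 1.65 FPKM with a log2 fold change of -1.17 (adjusted p = 0.00302), and Ddit4 had -0.47 (adjusted p = 0.0263). P4ha1 and Car9 passed whichever of the 8 libraries was left out, Pgk1 in 4 of these fits and Ddit4 in 2. Without LRP1 KO library 4, 4 rose and 4 fell, against 12.6% and 13.9% of all tested genes.

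Of 20 transcription factors of endothelial VEGF receptor genes and of Vegfa, 15 were tested, 4 rose and 0 fell, with a median of 0.28. The shares over all tested genes were 6.27% and 7.31%. Epas1, the hypoxia-inducible factor of endothelium, rose by 0.69 (adjusted p = 0.0338), Ets1 by 0.47 (adjusted p = 0.0340), Gata2 by 0.86 (adjusted p = 0.0365) and the flow-responsive Klf4 by 0.44 (adjusted p = 0.0474). Gata2 and Klf4 passed in 1 of 8 fits that left out a library, the one without LRP1 KO library 4, and Epas1 and Ets1 in 2. Erg, the defining ETS factor of endothelium, had a log2 fold change of 1.31 and an adjusted p of 0.0594, with 11.4, 5.89, 7.76 and 1.49 FPKM in LRP1 KO and 1.53 to 1.82 in WT, and without LRP1 KO library 4 it passed, at 1.78 (adjusted p = 0.000475). Leaving out LRP1 KO library 4 gave 8 that rose and 2 that fell, against 12.6% and 13.9% of all tested genes. Of the 20 pathway genes named for their calls in the 5 lists, none passed with a macrophage marker covariate in the fit, and only Cxcr4 and Car9 with an endothelial one. The macrophage covariate left 17 of the 20 log2 fold changes as large or larger and raised their median SE from 0.122 to 0.300, and the endothelial covariate left all 20 smaller with the same sign, at a median of 0.596 of their size and a median SE of 0.132. Centring on endothelial markers turned the sign of Epas1, Ets1, Klf4, Map2k1, Fyn, Sema3a, Unc5b, Apln, P4ha1 and Pgk1. It lowers every log2 fold change by the same amount, to a median of -0.84 over all genes. Small positive estimates therefore turn sign by construction.

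**Figure D5:**
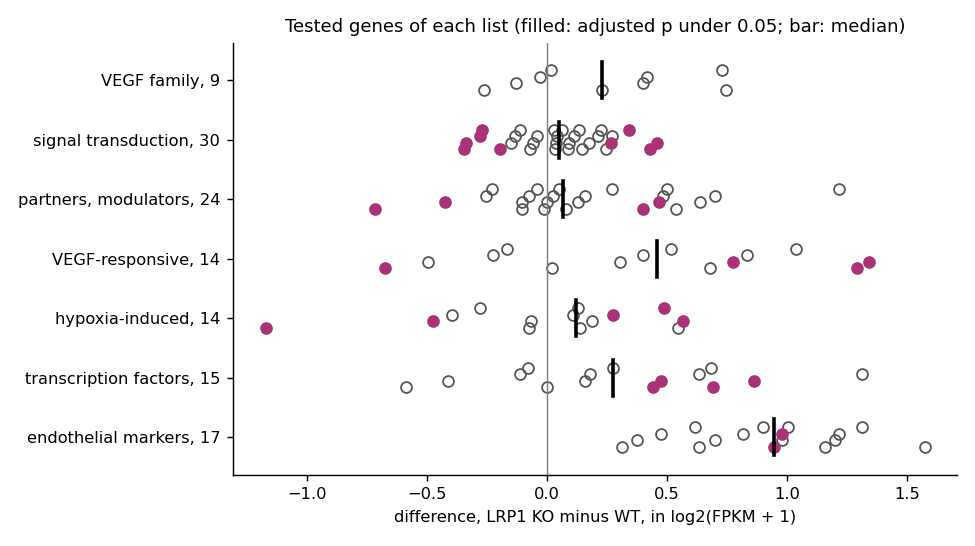
Difference of LRP1 KO minus WT in log2(FPKM + 1) for each tested gene of the VEGF family, the 5 pathway lists and the endothelial markers, with filled points at an adjusted p under 0.05 and a bar at the median of each list. Filled points lie on both sides of 0 in 4 of the 5 pathway lists and only above 0 in the transcription factors, and all 17 endothelial markers lie above 0, with a median of 0.94.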

How the data were processed

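RNA sequencing values of 4 LRP1 KO and 4 WT libraries, grouped by sample title, were taken from a single deposited table. Per the labels, the submitters' processing notes name TopHat2, Cufflinks and mm10, whereas the study's methods describe a count-based route. The authors deposited quantile-normalized values, taken here as FPKM because they are not whole and carry a length correction. The unit is inferred, and TPM cannot be told apart. Quantile normalization removes depth and would spread a broad shift over other genes. Genes at 1 FPKM or more in at least 4 libraries (11389 of 22520) were tested as log2(FPKM + 1) with limma 3.58.1 (R 4.3.3), the group as only term and a mean-variance trend, and p-values were adjusted by Benjamini-Hochberg. This scale understates changes of low genes. Single genes also had an exact two-sided permutation test over 70 splits (SciPy 1.17.1). The limma script was first tested on simulated data.

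Genes named were the 9 VEGF genes, Lrp1, Cdh5, Pecam1, the up to 4 genes with the smallest adjusted p below 0.05 in each pathway list, genes needed to describe a list, and the 3 closest patterns per gene. The members and lists were chosen with earlier results of these data known. Erg, Eng, Ecscr and Vegfd were named after their values were seen. Gene positions are from GENCODE M21 (GRCm38, the assembly of mm10), which matched 21740 of 22520 genes, and promoters from RefSeq, which matched all 9. Alternatives covered the pseudocount, the filter, the scaling, the variance trend, marker covariates, a replicate block and leaving out each library.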

Additional observations from a re-analysis of the deposited data

Results flagged for a closer look

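Single libraries stood far from the other 3 of their group in 3 of 66 gene and group pairs examined, where chance alone gives about 1 in 20. Vegfa in LRP1 KO library 2 was 46.3 FPKM, against 34.0 to 35.8 in the other LRP1 KO libraries, a gap of 0.854 of the range. Vegfd in LRP1 KO library 1 was 67.7 FPKM, against 93.0 to 96.1, a gap of 0.89. Sema3f in WT library 3 was 60.3 FPKM, against 63.4 to 63.9 in the other WT libraries, a gap of 0.865.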

How the results depend on the processing

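Main counts were 184 genes past both limits, 1547 past the adjusted p, and 0 VEGF genes past either. Leaving out single libraries gave 133 to 339 and 512 to 3021 genes, and 0 to 1 and 0 to 3 VEGF genes, the upper ends without LRP1 KO library 4. Each of the other 7 libraries, when left out, lowered the count past the adjusted p by over 1.5 times, to between 512 and 1008. Over all settings the VEGF genes kept side and sign in 137 values, passed in 5 and turned sign in 20. Centring on endothelial markers gave 2552 and 2911 genes and 1 VEGF gene by either rule, Vegfc at -1.09 (adjusted p 0.0394). It turned Kdr to -0.43, Flt1 to -0.60, Flt4 to -0.10, Nrp2 to -0.81, Vegfa to -0.41, Pgf to -0.083, Map2k1 to -0.56, Fyn to -0.37, Sema3a to -0.36, Unc5b to -0.43, Apln to -0.053, P4ha1 to -0.34, Pgk1 to -0.26, Epas1 to -0.14, Ets1 to -0.35 and Klf4 to -0.39. These turns follow by construction, since centring lowers every log2 fold change by the same amount, to a median of -0.84 over all genes. The endothelial marker covariate left 96 and 170 genes, with Flt4 at -0.11, Nrp1 at 0.25, Nrp2 at -0.25, Vegfc at 0.0096, Pgf at -0.0078 and Pecam1 at -0.013, and Kdr at 0.13. Pecam1 is itself one of the markers averaged into that covariate, so its small value is built in. The macrophage marker covariate left 6 and 6 genes, with Vegfa at -0.29, Kdr at 1.25, Flt4 at 1.88, Pgf at 1.85, the log2 fold change of Nrp1 at -0.80, the log2 fold change of Vegfc at -0.89, and a median SE over all genes of 0.225 in place of 0.0880. Its level did not overlap between the groups, so this fit can hardly tell the covariate from the group. Nrp2 ranged from -0.083 to 0.15 and Nrp1 from -0.18 to 0.072 over the fits that left out 1 library: Nrp2 was -0.06, -0.08, -0.083 and -0.03 without WT library 1, WT library 2, LRP1 KO library 1 and LRP1 KO library 3, and Nrp1 was 0.072, 0.05, 0.07 and 0.0021 without WT library 3, WT library 4, LRP1 KO library 1 and LRP1 KO library 3. Of the 20 named pathway genes, 0 passed with the macrophage covariate (17 with log2 fold changes as large or larger, median SE 0.300 in place of 0.122), 2 with the endothelial covariate (all 20 smaller, by a median factor of 0.596), 7 after centring, 12 with no filter on low values, and 5 (without WT library 2) to 20 (without LRP1 KO library 4) with 1 library left out. Where no construction shows it, the cause was not tested.

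Same-numbered libraries of the groups correlated at 0.158, 0.141, 0.340 and -0.312, so the numbers were not taken to pair them. A fit with the replicate block passed 1013 genes and 1 VEGF gene, Pgf at 0.75 (adjusted p 0.0339), 173 genes past both limits, and 16 of the 20 named pathway genes. Depth is unknown, so no limit of detection could be given.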

Other observations

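Esm1 and Prox1 were outside the test because they reached 1 FPKM in only 2 of the 8 libraries, LRP1 KO libraries 1 and 3. The tip cell gene Esm1 was 0.213, 0.0605, 0.359 and 0.256 FPKM in WT and 4.61, 0.779, 2.14 and 0.418 in LRP1 KO, with no overlap between the groups. The value of 0.418 lay close to the WT maximum of 0.359. Of tested genes, 8.84% were higher in LRP1 KO without overlap. Of 6 lymphatic endothelial markers, 3 were tested and 0 passed, Lyve1 and Mmrn1 with positive estimates and Pdpn with a negative one, of -0.19. Prox1, the transcription factor of lymphatic endothelium, was 0.610 to 0.864 FPKM in WT and 2.22, 0.632, 1.76 and 0.466 in LRP1 KO. The other untested lymphatic markers went opposite ways. Mean Ccl21a was 0.443 FPKM in WT and 0.146 in LRP1 KO, and mean Reln 0.246 and 0.389. Of 8 liver sinusoidal markers, 2 were tested, Stab1 and Gata4, and 0 passed. Lyve1 and Stab1 had adjusted p-values of 0.194 and 0.118, and both had LRP1 KO library 4 below every WT library. Without that library both passed, at log2 fold changes of 1.20 and 1.25 (adjusted p of 0.0116 and 0.00135), while Mmrn1, Pdpn and Gata4 did not, with adjusted p-values of 0.0616, 0.0594 and 0.266. Angpt2, a ligand of the Tie2 receptor stored in endothelial cells, was 13.1 to 21.4 FPKM in WT and 80.1, 28.0, 56.9 and 9.12 in LRP1 KO, with an adjusted p of 0.211, and 0.00701 without LRP1 KO library 4. Esm1, Prox1, Lyve1, Stab1 and Angpt2 were picked with their values known.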
